A study of Mus musculus with 11 samples.

Results

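Expression of 9 genes of the ventral forebrain and of the GABA system was examined in cultured mouse neural progenitor cells (NPCs). They were *Dlx1*, *Dlx2*, *Dlx5*, *Dlx6* and the antisense RNA *Dlx6os1* from the *Dlx* loci, and *Gad1*, *Gad2*, *Slc32a1* and *Slc6a11* from GABA synthesis, vesicle loading and uptake. The members were listed by symbol and looked up among the 53801 gene identifiers of the count tables. All 9 were found, and all 9 passed the filter on low counts in each comparison.

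NPCs came from the brains of E13.5 embryos and grew with EGF and bFGF, and their total RNA was sequenced in 11 libraries from 8 embryos. Every group, the controls included, was Smg6 Flox/Flox on a strain background of C57BL/6 mixed with 129SV. Smg6 encodes an RNA nuclease of nonsense-mediated decay, and RosaCreER is a Cre recombinase that 4-hydroxytamoxifen (4-OHT) switches on, expressed from a locus that is active in most cell types. The Ctr group held 3 libraries of RosaCreER tg/+ cells without treatment. The Ctr + 4-OHT group held 4 libraries of RosaCreER +/+ cells, which lack the recombinase, given 1 µM 4-OHT. The *Smg6*-iKO group held 4 libraries of RosaCreER tg/+ cells given 1 µM 4-OHT. The treatment lasted 3 days, and the cells were analysed 6 days after it began. Embryos SMH_128, SMH_132 and SMH_133 each gave 1 Ctr and 1 *Smg6*-iKO library, whereas the embryos of Ctr + 4-OHT (SMH_125, SMH_126, SMH_129 and SMH_131) and embryo SMH_127 of *Smg6*-iKO gave 1 library each. Embryos are named as in the labels. Between Ctr + 4-OHT and Ctr, the embryos, the recombinase and the drug therefore differed together and cannot be told apart.

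DLX proteins are homeodomain transcription factors made in the ganglionic eminences, the ventral forebrain regions where GABAergic interneurons arise. *Dlx* genes lie in pairs that share enhancers, and their products act on genes of GABA synthesis. GABA is made from glutamate by the enzymes that *Gad1* and *Gad2* encode, is loaded into synaptic vesicles by the transporter of *Slc32a1* (VGAT), and is taken up again by transporters such as that of *Slc6a11* (GAT3), which is found mainly in glia.

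Counts on genes summed to between 26418249 and 33756875 per library. At the level of the whole gene, *Smg6* stood at 69.4 to 79.4 CPM (counts scaled to the library's normalized total) in Ctr, 66.5 to 72.3 CPM in Ctr + 4-OHT and 62.3 to 71.9 CPM in *Smg6*-iKO, and *Smg6*-iKO differed from Ctr + 4-OHT by -0.059 on the log2 scale (adjusted p = 0.703, edgeR's quasi-likelihood test). Against Ctr the log2 fold change was -0.17 (adjusted p = 0.148, edgeR). The fit that blocked on embryo gave -0.15, past the threshold (adjusted p = 0.0430). Whole-gene counts hold the reads of all exons and do not measure the loss of the floxed one. Markers of neural progenitors were abundant in all libraries, with a sum over 10 genes of 4588 to 5788 CPM. Neuron markers summed to 1964 to 3217 CPM over 10 genes, so the cultures held RNA of both kinds. None of 8 microglia markers passed the filter on low counts, and their sum lay between 0.797 and 2.31 CPM. The 7 mesenchymal and pericyte markers summed to 283 to 1540 CPM, with the highest sum in the *Smg6*-iKO library of embryo SMH_127. In bulk RNA, fewer cells of a type and less RNA per cell cannot be told apart.

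The *Dlx* members sit in 2 pairs in GRCm38, the build of the files. *Dlx1* (chromosome 2, 71528113 to 71533981, plus strand) and *Dlx2* (71543408 to 71546754, minus strand) face each other across 9426 bp. *Dlx6* (chromosome 6, 6863334 to 6868568, plus strand) and *Dlx5* (6877805 to 6882085, minus strand) lie 9236 bp apart. *Dlx6os1* (6820189 to 6871592, minus strand) runs antisense across this locus, and the whole of *Dlx6* lies within an intron of it. The library kit kept the strand and the authors counted by strand, so reads of *Dlx6* and *Dlx6os1* were assigned separately. A second identifier with the symbol *Dlx6os1*, a model of 146 bases with 2 counts in all libraries together, was not used. *Gad1* (70553072 to 70602014), *Gad2* (22622205 to 22693874) and *Slc32a1* (158610767 to 158615748) lie on the plus strand of chromosome 2, and *Slc6a11* (114131241 to 114249952) on the plus strand of chromosome 6.

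Because 8 of the members moved together between embryos of a group, as given further on, the 250 bases before their RefSeq starts (GRCm38.p6) were searched for 6 short motifs on both strands. Windows were at hand for 7 of the 9 genes (not *Dlx5* and *Dlx6*), with 2 starts for *Dlx6os1*. The 4 windows shown stand for the roles in the set, a coding *Dlx* gene, the antisense RNA at 1 of its starts, a gene of GABA synthesis and the gene of GABA uptake. Each is written 5′ to 3′ on the strand of its gene, with the motifs in capitals. The RefSeq starts of *Dlx6os1* and *Gad1* lie inside the longer gene models of the count tables.
Dlx2 (chr2:71546755-71547004, minus strand): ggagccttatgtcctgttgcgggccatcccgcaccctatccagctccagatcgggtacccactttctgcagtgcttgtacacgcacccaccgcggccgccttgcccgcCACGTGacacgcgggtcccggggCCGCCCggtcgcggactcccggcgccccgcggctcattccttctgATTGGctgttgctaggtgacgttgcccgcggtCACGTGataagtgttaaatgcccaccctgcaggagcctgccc
Dlx6os1 (chr6:6869534-6869783, minus strand): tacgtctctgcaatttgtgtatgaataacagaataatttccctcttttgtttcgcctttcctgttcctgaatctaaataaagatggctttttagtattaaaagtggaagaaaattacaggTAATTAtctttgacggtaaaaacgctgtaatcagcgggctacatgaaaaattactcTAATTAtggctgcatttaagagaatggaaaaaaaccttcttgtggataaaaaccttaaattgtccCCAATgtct
Gad1 (chr2:70561879-70562128, plus strand): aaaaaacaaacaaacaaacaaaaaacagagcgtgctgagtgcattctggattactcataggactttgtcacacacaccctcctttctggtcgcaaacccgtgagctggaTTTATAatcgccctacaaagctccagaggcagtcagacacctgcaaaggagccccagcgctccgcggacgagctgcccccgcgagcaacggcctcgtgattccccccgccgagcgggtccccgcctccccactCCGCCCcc
Slc6a11 (chr6:114130991-114131240, plus strand): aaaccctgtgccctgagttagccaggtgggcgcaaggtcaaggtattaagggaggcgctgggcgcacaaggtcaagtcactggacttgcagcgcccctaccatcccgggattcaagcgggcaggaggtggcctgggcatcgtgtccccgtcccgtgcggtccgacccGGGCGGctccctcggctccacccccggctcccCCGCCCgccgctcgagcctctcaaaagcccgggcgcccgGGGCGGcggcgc

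The homeodomain motif TAATTA occurred in the windows of *Dlx6os1* alone, at both starts, against 4.84% of the 32851 windows of the same length in the table. The E-box CACGTG occurred at 2 places before *Dlx2* and in no other member, against 6.02% of all windows. The E-box CAGCTG was in none of the members' windows, against 13.0%. CCAAT stood before *Dlx2*, *Dlx6os1* and *Gad2* (33.8% of all windows), TATAAA before *Gad1* and the other start of *Dlx6os1* (12.4%), and GGGCGG before *Dlx2*, *Gad1* and, at 3 places, *Slc6a11* (32.7%). The windows differed widely in base composition, with 33.2% G and C in the *Dlx6os1* window shown and 71.2% in that of *Slc6a11*, against a median of 52.4% over all windows. No motif was shared by all members, no matches overlapped, and a match of letters says nothing about binding.

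Per kilobase of exon (RPKM, computed here from the CPM and the lengths in the files), the members covered a wide span over the 11 libraries. *Slc6a11* had the highest level, at 44.5 ± 8.67 RPKM (SD, n = 11), against a median of 4.33 RPKM over the 18123 genes kept. The GABA synthesis gene *Gad1* followed at 7.55 ± 1.01 RPKM, *Dlx6os1* at 5.76 ± 1.02, *Slc32a1* at 4.50 ± 0.849, *Dlx1* at 4.38 ± 0.803 and *Gad2* at 3.94 ± 0.791. *Dlx6* (1.72 ± 0.369), *Dlx2* (1.61 ± 0.396) and *Dlx5* (1.60 ± 0.382) had the lowest levels, at percentiles of 33.6 to 34.7 among those genes. The ranges of neighbours in this order overlapped, except that the lowest library of *Slc6a11* (31.0 RPKM) lay above the highest of *Gad1* (9.09 RPKM), and the lowest of *Gad2* (3.02 RPKM) above the highest of *Dlx6* (2.39 RPKM). Counts behind these levels were lowest for *Dlx5*, with 69 to 170 per library, and highest for *Slc6a11*, with 5362 to 8941.

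Values are given below in CPM after TMM normalization over the 11 libraries, in the order of embryos SMH_128, SMH_132 and SMH_133 for Ctr, SMH_125, SMH_126, SMH_129 and SMH_131 for Ctr + 4-OHT, and SMH_127, SMH_128, SMH_132 and SMH_133 for *Smg6*-iKO. The *Smg6*-iKO library of embryo SMH_128 stood apart: it was the lowest of its group in 8 of 8 members other than *Slc6a11*, and the highest for *Slc6a11*. Calls that turn on it are therefore given with and without it, whereas the correlations given further on hold all 11 libraries, this one included. The comparison of *Smg6*-iKO with Ctr + 4-OHT is between cells that all received the drug, in which the recombinase, the deletion and the embryos differ together and cannot be told apart. That with Ctr sets treated against untreated cells of 1 genotype. In it the drug, the switched-on recombinase and the deletion differ together and cannot be told apart. These comparisons share the *Smg6*-iKO libraries and are no independent evidence of each other.

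Differences between *Smg6*-iKO and the controls were modest in these genes. Against Ctr + 4-OHT, 8 members had positive log2 fold changes between 0.31 and 0.50 and *Slc6a11* a negative one of -0.40, but 0 of 9 passed an adjusted p of 0.05 in edgeR's quasi-likelihood test, where 1.17% of the 17558 genes tested did. At an unadjusted p under 0.05 there were 8 of 9 members, against 16.7% of all genes. DESeq2's Wald test called 1 member (*Slc6a11*) on the groups compared, where it called 880 genes in all. In a fit of all libraries it called 2 (*Gad1* and *Slc6a11*), with 1131 genes in all, and limma-voom called 0, with 195 in all. No member had groups that did not overlap, against 11% of all genes. The median log2 fold change of the 9 members was 0.37, beside 0.012 over all genes tested.

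Against Ctr, 2 of 9 members passed the test, *Dlx1* upward and *Slc6a11* downward, where 9.25% of 17974 genes tested did. An unadjusted p under 0.05 was found for 5 of 9, against 26.9% of all genes. The other 7 had log2 fold changes between 0.22 and 0.41, and the median of the 9 was 0.31, beside 0.0055 over all genes. Only *Slc6a11* had groups that did not overlap (1 of 9 members, against 23.3% of all genes). With the embryo as a block in the edgeR fit, so that each Ctr library was set against the *Smg6*-iKO library of the same embryo, 5 of 9 members passed (*Dlx1*, *Dlx6os1*, *Gad1* and *Gad2* upward, *Slc6a11* downward), where 21.4% of all genes did, and the median was 0.20. There 7 of 9 had an unadjusted p under 0.05, against 33.8% of all genes. The block raised the count of all genes called as well, from 1663 to 3854. The block fit rests on 3 embryo pairs, so few degrees of freedom are left to a gene, and fewer when an embryo is left out. Its p therefore leans on the spread that edgeR shares across genes.

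Without the *Smg6*-iKO library of embryo SMH_128, edgeR called 1 of 9 members and 138 genes in all against Ctr + 4-OHT (*Gad2*, log2 fold change 0.54, adjusted p = 0.0394), and the median became 0.45. Against Ctr, 5 of 9 were called without it (*Dlx1*, *Dlx5*, *Gad1*, *Gad2* and *Slc6a11*), and 2524 genes in all. Within the embryo pairs, the fit without embryo SMH_128 rested on 2 pairs (embryo SMH_127 has no partner) and called 7 of 9 members and 5179 genes in all. The fits without embryo SMH_132 or SMH_133 called 2 of 9 each, *Dlx1* and *Slc6a11*, with 2528 and 1730 genes in all. Without the block, the count against Ctr was 0 without the Ctr library of embryo SMH_128 (578 genes in all) or SMH_132 (574) or the *Smg6*-iKO library of embryo SMH_133 (570). It was 1 without the *Smg6*-iKO library of embryo SMH_127 (843 genes in all) or SMH_132 (986), and 2 without the Ctr library of embryo SMH_133 (1018).

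**Figure D1:**
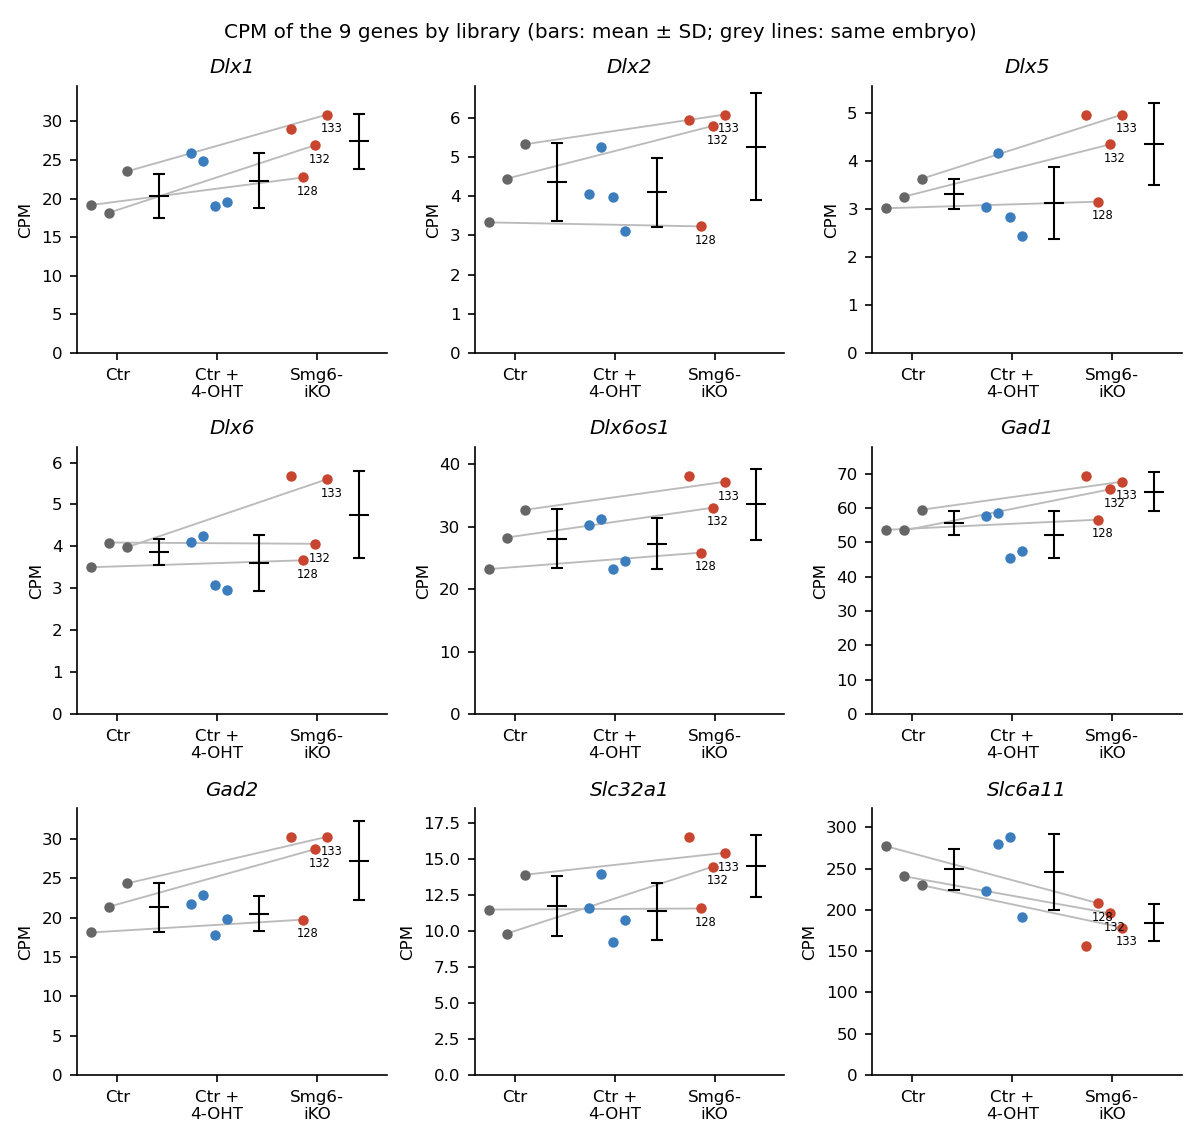
CPM of each of the 9 genes in the 11 libraries, with Ctr in grey, Ctr + 4-OHT in blue and *Smg6*-iKO in red (horizontal axis, group; vertical axis, CPM from 0). Bars give the mean ± SD of a group, grey lines join libraries of 1 embryo, and small numbers are the digits of the embryo's name; in *Slc6a11* all 3 lines fall, and in the other panels the lowest red point is embryo SMH_128.

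*Dlx1*, which encodes a transcription factor of interneuron precursors and is the best covered coding *Dlx* gene here, had 19.2, 18.2 and 23.5 CPM in Ctr, 25.9, 24.9, 19.0 and 19.5 CPM in Ctr + 4-OHT, and 29.1, 22.7, 26.9 and 30.9 CPM in *Smg6*-iKO. In *Smg6*-iKO, 3 libraries lay above every control library, and embryo SMH_128 lay among the controls. The group means were 20.3 ± 2.84 (SD, n = 3), 22.3 ± 3.55 (SD, n = 4) and 27.4 ± 3.51 CPM (SD, n = 4). *Dlx1* rose against Ctr by a log2 fold change of 0.44 (SE 0.12, adjusted p = 0.0417, edgeR's quasi-likelihood test), or 35.3%, and was higher in 3 of 3 embryo pairs, with log2 ratios of 0.25, 0.57 and 0.39 for embryos SMH_128, SMH_132 and SMH_133. With the embryo as a block the log2 fold change was 0.40 (SE 0.073, adjusted p = 0.000825), and it passed without any 1 of the 3 embryos (0.32 to 0.48). The call without the block was lost when the Ctr library of embryo SMH_128 (log2 fold change 0.40, adjusted p = 0.141) or SMH_132 (0.35, adjusted p = 0.161), or the *Smg6*-iKO library of embryo SMH_127 (0.41, adjusted p = 0.0906), SMH_132 (0.45, adjusted p = 0.0724) or SMH_133 (0.37, adjusted p = 0.115), was left out, and in an edgeR fit of all 11 libraries (0.44, adjusted p = 0.089). Against Ctr + 4-OHT the log2 fold change was 0.31 (SE 0.12, adjusted p = 0.244, edgeR), with a 95% interval of 0.032 to 0.59.

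*Dlx2*, the neighbour and close relative of *Dlx1*, had 3.33, 4.44 and 5.32 CPM in Ctr, 4.06, 5.25, 3.97 and 3.11 CPM in Ctr + 4-OHT, and 5.95, 3.23, 5.79 and 6.08 CPM in *Smg6*-iKO. The *Smg6*-iKO libraries of embryos SMH_127, SMH_132 and SMH_133 were above all controls, whereas that of embryo SMH_128 was below every Ctr library. The means were 4.36 ± 0.997 (SD, n = 3), 4.10 ± 0.878 (SD, n = 4) and 5.26 ± 1.36 CPM (SD, n = 4), a difference within the spread. Log2 fold changes of *Smg6*-iKO were 0.38 (SE 0.22, adjusted p = 0.421, edgeR) against Ctr + 4-OHT and 0.28 (SE 0.22, adjusted p = 0.466) against Ctr, and 0.20 (SE 0.12, adjusted p = 0.286) with the embryo as a block. When 1 library was left out, the value against Ctr lay between 0.12 (without the Ctr library of embryo SMH_128, adjusted p = 0.824) and 0.45 (without the *Smg6*-iKO library of that embryo, adjusted p = 0.0973). The block fit gave 0.095 (adjusted p = 0.765) without embryo SMH_132. In the pairs *Dlx2* was higher in 2 of 3, with log2 ratios of -0.045, 0.38 and 0.19. Per length, the ratio of *Dlx1* to *Dlx2* was 2.52 ± 0.467 in Ctr, 2.94 ± 0.478 in Ctr + 4-OHT and 2.87 ± 0.582 in *Smg6*-iKO, with overlapping ranges.

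*Dlx5* and *Dlx6* encode the second pair of DLX factors, which act after *Dlx1* and *Dlx2* in the interneuron lineage. *Dlx5* had 3.02, 3.26 and 3.64 CPM in Ctr, 3.05, 4.17, 2.84 and 2.44 CPM in Ctr + 4-OHT, and 4.96, 3.15, 4.35 and 4.97 CPM in *Smg6*-iKO. *Dlx6* had 3.50, 4.09 and 3.98 CPM in Ctr, 4.09, 4.25, 3.07 and 2.97 CPM in Ctr + 4-OHT, and 5.69, 3.67, 4.06 and 5.60 CPM in *Smg6*-iKO. For *Dlx5*, embryos SMH_127, SMH_132 and SMH_133 of *Smg6*-iKO lay above all controls, and for *Dlx6* embryos SMH_127 and SMH_133 did, so that the groups overlapped in both genes. *Dlx5* had the largest log2 fold change of the 9 members against Ctr + 4-OHT, 0.50 (SE 0.20, 95% interval 0.059 to 0.93, adjusted p = 0.238, edgeR), from 3.13 ± 0.743 to 4.36 ± 0.853 CPM (SD, n = 4 each). Against Ctr it was 0.41 (SE 0.17, adjusted p = 0.156), and 0.33 (SE 0.13, adjusted p = 0.0955) with the embryo as a block. It passed against Ctr without the *Smg6*-iKO library of embryo SMH_128 (0.53, adjusted p = 0.0316), and without any other library it did not (0.34 to 0.47). The block fit gave 0.43 (adjusted p = 0.0272) without embryo SMH_128 and 0.26 (adjusted p = 0.445) without embryo SMH_133. For *Dlx6* the log2 fold changes were 0.42 (SE 0.19, adjusted p = 0.291, edgeR) against Ctr + 4-OHT, 0.31 (SE 0.17, adjusted p = 0.285) against Ctr and 0.19 (SE 0.13, adjusted p = 0.337) with the block. In the pairs the log2 ratios of *Dlx6* were 0.066, -0.011 and 0.49, and without embryo SMH_133 the block fit gave 0.033 (adjusted p = 0.942). It gave 0.25 (adjusted p = 0.231) without embryo SMH_128 and 0.30 (adjusted p = 0.252) without embryo SMH_132.

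*Dlx6os1*, a long non-coding RNA also known as Evf2, had 23.2, 28.3 and 32.7 CPM in Ctr, 30.3, 31.2, 23.2 and 24.6 CPM in Ctr + 4-OHT, and 38.2, 25.9, 33.1 and 37.2 CPM in *Smg6*-iKO. The *Smg6*-iKO libraries of embryos SMH_127, SMH_132 and SMH_133 were above all controls and that of embryo SMH_128 was not. Embryos of a group differed by more than the group means did, which were 28.1 ± 4.75 (SD, n = 3), 27.3 ± 4.04 (SD, n = 4) and 33.6 ± 5.61 CPM (SD, n = 4). The 3 embryo pairs, by contrast, were close to each other, with log2 ratios of 0.15, 0.22 and 0.19. *Dlx6os1* passed with the embryo as a block (log2 fold change 0.19, SE 0.062, adjusted p = 0.0369, edgeR), a call lost without embryo SMH_132 (0.17, adjusted p = 0.170) or SMH_133 (0.20, adjusted p = 0.229). It did not pass in the fit without the block (0.26, SE 0.14, adjusted p = 0.259), where it passed with no filter on low counts (0.27, adjusted p = 0.0211), or against Ctr + 4-OHT (0.31, SE 0.14, adjusted p = 0.283). Without the block, the value against Ctr was 0.14 (adjusted p = 0.623) without the Ctr library of embryo SMH_128. Leaving out the *Smg6*-iKO library of that embryo gave 0.37 (adjusted p = 0.0573). Per length it exceeded *Dlx6*, which lies in its intron on the other strand, by 3.33 ± 0.389 times in Ctr, 3.51 ± 0.197 times in Ctr + 4-OHT and 3.28 ± 0.318 times in *Smg6*-iKO.

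Genes of GABA synthesis and loading had small positive differences of the same order. *Gad1*, which encodes the cytosolic glutamate decarboxylase GAD67, had 53.6, 53.4 and 59.5 CPM in Ctr, 57.6, 58.5, 45.3 and 47.5 CPM in Ctr + 4-OHT, and 69.4, 56.6, 65.4 and 67.6 CPM in *Smg6*-iKO. The *Smg6*-iKO libraries other than embryo SMH_128 were above all controls. Group means were 55.5 ± 3.44 (SD, n = 3), 52.2 ± 6.79 (SD, n = 4) and 64.8 ± 5.70 CPM (SD, n = 4). *Gad1* had the smallest adjusted p of the members against Ctr + 4-OHT and did not pass (log2 fold change 0.32, SE 0.099, adjusted p = 0.146, edgeR's quasi-likelihood test). Against Ctr it did not pass without the block (0.22, SE 0.079, adjusted p = 0.0987) and passed with it (0.19, SE 0.055, adjusted p = 0.0221), and without the *Smg6*-iKO library of embryo SMH_128 (0.28, adjusted p = 0.0203). The block call was lost without embryo SMH_132 (0.13, adjusted p = 0.200) or SMH_133 (0.19, adjusted p = 0.155). It was higher in 3 of 3 pairs, with log2 ratios of 0.077, 0.29 and 0.19.

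*Gad2* encodes GAD65, the decarboxylase at synaptic vesicles. It had 18.1, 21.4 and 24.3 CPM in Ctr, 21.7, 22.9, 17.8 and 19.7 CPM in Ctr + 4-OHT, and 30.3, 19.7, 28.7 and 30.2 CPM in *Smg6*-iKO. Embryo SMH_128 of *Smg6*-iKO lay within both control groups and the other 3 libraries above them. The log2 fold change was 0.42 (SE 0.14, adjusted p = 0.163, edgeR) against Ctr + 4-OHT and 0.36 (SE 0.15, adjusted p = 0.146) against Ctr. Both values were past the threshold without the *Smg6*-iKO library of embryo SMH_128 (0.54, adjusted p = 0.0394, and 0.48, adjusted p = 0.0137). With the embryo as a block *Gad2* rose by 0.29 (SE 0.072, adjusted p = 0.00764), higher in 3 of 3 pairs (log2 ratios 0.12, 0.42 and 0.31). That call was lost without embryo SMH_132 (0.23, adjusted p = 0.0891) or SMH_133 (0.29, adjusted p = 0.0723). *Gad1* exceeded *Gad2* per length by 2.03 ± 0.219 times in Ctr, 1.96 ± 0.0803 times in Ctr + 4-OHT and 1.86 ± 0.231 times in *Smg6*-iKO, a ratio with overlapping ranges in the 3 groups.

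*Slc32a1*, the vesicular GABA transporter, had 11.5, 9.81 and 13.9 CPM in Ctr, 11.6, 13.9, 9.21 and 10.7 CPM in Ctr + 4-OHT, and 16.5, 11.6, 14.4 and 15.4 CPM in *Smg6*-iKO. Again embryo SMH_128 lay among the controls and the other *Smg6*-iKO libraries lay above them. Its log2 fold changes were 0.37 (SE 0.14, adjusted p = 0.234, edgeR) against Ctr + 4-OHT, 0.31 (SE 0.14, adjusted p = 0.188) against Ctr and 0.24 (SE 0.098, adjusted p = 0.0906) with the embryo as a block. The pairs gave 0.0094, 0.56 and 0.15, so embryo SMH_128 hardly differed between treated and untreated cells. The fit with the block gave 0.34 (adjusted p = 0.00289) without embryo SMH_128 and 0.085 (adjusted p = 0.665) without embryo SMH_132. Without the block, the value against Ctr was 0.19 (adjusted p = 0.503) without the Ctr library of embryo SMH_132.

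*Slc6a11*, the GABA transporter GAT3, went the other way. It had 277, 241 and 230 CPM in Ctr, 222, 280, 289 and 192 CPM in Ctr + 4-OHT, and 156, 208, 196 and 179 CPM in *Smg6*-iKO. Every *Smg6*-iKO library was below every Ctr library, whereas embryo SMH_131 of Ctr + 4-OHT fell between the *Smg6*-iKO libraries. The means were 249 ± 24.8 (SD, n = 3), 246 ± 46.5 (SD, n = 4) and 185 ± 22.4 CPM (SD, n = 4). *Slc6a11* fell against Ctr, with a log2 fold change of -0.43 (SE 0.097, adjusted p = 0.0226, edgeR's quasi-likelihood test), and it was lower in 3 of 3 pairs, with log2 ratios of -0.41, -0.30 and -0.36. With the embryo as a block the value was -0.36 (SE 0.049, adjusted p = 5.74e-05), and it passed without any 1 of the 3 embryos (-0.39 to -0.33). The call without the block was lost without the Ctr library of embryo SMH_128 (-0.35, adjusted p = 0.0924) or SMH_132 (-0.47, adjusted p = 0.0602), without the *Smg6*-iKO library of embryo SMH_133 (-0.42, adjusted p = 0.0666), and in a fit of all 11 libraries (-0.43, adjusted p = 0.0897). Against Ctr + 4-OHT the log2 fold change was -0.40 (SE 0.13, 95% interval -0.70 to -0.10), which missed the threshold in edgeR (adjusted p = 0.171) and passed it in DESeq2's Wald test on the same groups (-0.42, adjusted p = 0.0484).

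**Figure D2:**
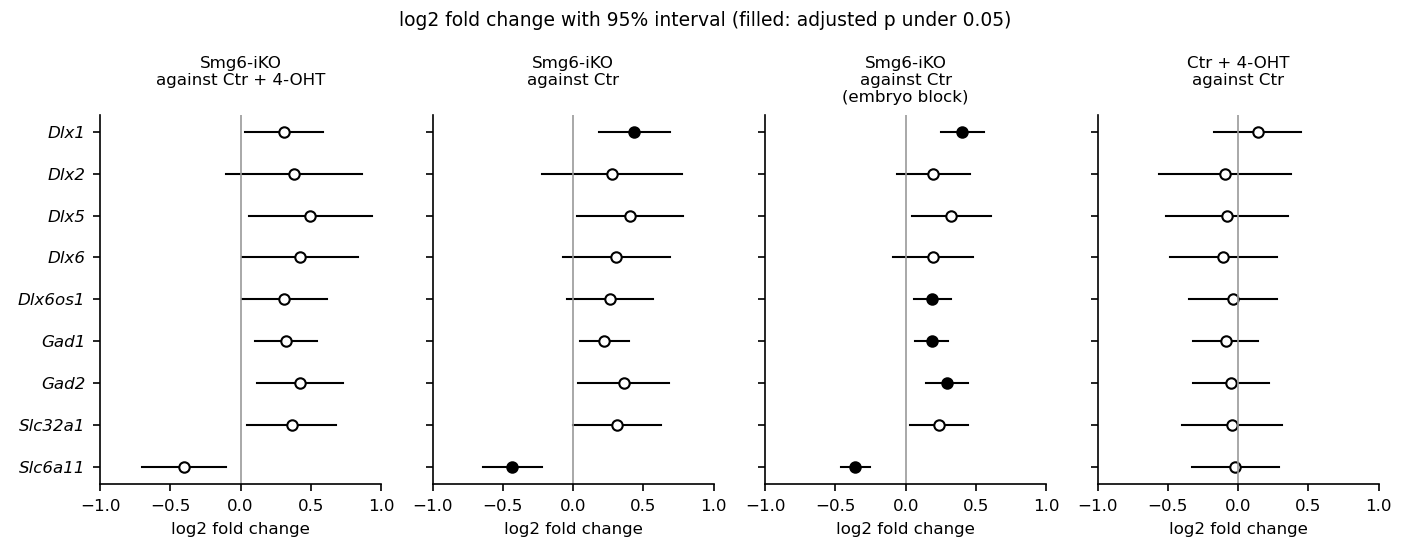
Log2 fold changes of the 9 genes (horizontal axis, points) with 95% intervals (lines) in 4 edgeR fits, filled where the adjusted p was under 0.05. The first panel, against Ctr + 4-OHT, has no filled point, the second has *Dlx1* (0.44) and *Slc6a11* (-0.43), the third, with the embryo as a block, has 5, and the fourth, of the control groups, has none.

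The control groups were set against each other to see what treatment without the recombinase went with. In Ctr + 4-OHT against Ctr, 0 of 9 members passed edgeR's test, and 0 had an unadjusted p under 0.05, where 0.221% of the 17665 genes tested passed and 8.28% had such a p. DESeq2 and limma-voom called 0 members as well. Log2 fold changes lay between -0.10 (*Dlx6*) and 0.14 (*Dlx1*), with a median of -0.053, and their 95% intervals were wide, from -0.17 to 0.45 for *Dlx1* and from -0.33 to 0.29 for *Slc6a11*. The median was -0.15 without the Ctr + 4-OHT library of embryo SMH_126 and 0.060 without the Ctr library of embryo SMH_133. None of the 9 had groups without overlap, against 8.71% of all genes. Because Ctr is a side of this comparison and of the one above, their values are not independent.

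Within the pairs, embryos SMH_132 and SMH_133 carried most of the difference. Over the 8 members other than *Slc6a11*, the median log2 ratio of *Smg6*-iKO to Ctr was 0.072 in embryo SMH_128, 0.40 in embryo SMH_132 and 0.25 in embryo SMH_133. In embryo SMH_128, 7 of 8 genes were higher in *Smg6*-iKO (range -0.045 to 0.25), in embryo SMH_132 7 of 8 (range -0.011 to 0.57), and in embryo SMH_133 all 8 (range 0.15 to 0.49). For *Slc6a11* the 3 embryos were closer together, at -0.41, -0.30 and -0.36.

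The members also varied together among libraries of a group. After the group means were taken off the log2 CPM, Pearson's r over the 11 libraries lay between 0.69 and 0.96 for the 28 pairs of the 8 members other than *Slc6a11*, with a median of 0.84. The highest was between *Gad2* and *Dlx6os1*, which lie on different chromosomes, and the lowest between *Dlx6* and *Slc32a1*. The neighbours *Dlx1* and *Dlx2* had an r of 0.75, and *Dlx5* and *Dlx6* of 0.85. *Slc6a11* did not share this pattern, with r between -0.47 (*Gad2*) and 0.013 (*Dlx5*). All genes of a library share its depth and its composition of cells, so these values are a description.

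**Figure D3:**
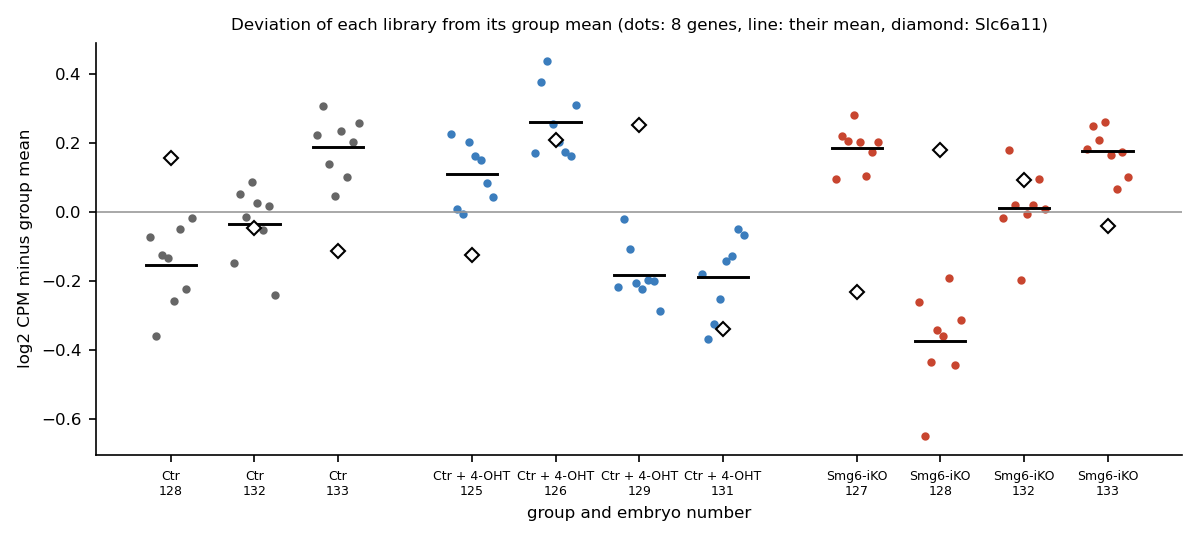
Log2 CPM of each library minus the mean of its group (vertical axis), by group and embryo (horizontal axis), with 1 dot for each of 8 genes, a line for their mean and a diamond for *Slc6a11*. The 8 genes lie on the same side in most libraries, furthest below in the *Smg6*-iKO library of embryo SMH_128 (mean -0.37) and furthest above in the Ctr + 4-OHT library of embryo SMH_126 (mean 0.26).

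By library, the mean deviation of the 8 genes was -0.15, -0.035 and 0.19 in Ctr, 0.11, 0.26, -0.18 and -0.19 in Ctr + 4-OHT, and 0.19, -0.37, 0.013 and 0.18 in *Smg6*-iKO. The Ctr and the *Smg6*-iKO library of embryo SMH_128 were both the lowest of their groups, and those of embryo SMH_133 were both above their group means. Genes most like the mean of the 5 *Dlx* members were led by *Agap1* (r = 0.98), which encodes a protein that acts on ARF GTPases, and 7 of the 10 most similar genes were small RNAs, among them *Scarna6* (r = 0.96), *Snord17* (r = 0.94) and *Rny1* (r = 0.93). The other protein-coding genes among the 10 were *Zfp459* and *Cpeb3* (r = 0.94 each).

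Some small RNAs were among the genes most like the members. The 5 genes most like each member included small RNAs for 6 of 9 members, 12 of 45 entries in all, such as *Rnu12* for *Dlx1* (r = 0.97) and *Snord118* for *Dlx6* (r = 0.95). Genes annotated as snRNA summed to 313, 332 and 440 CPM in Ctr, 385, 365, 259 and 247 CPM in Ctr + 4-OHT, and 342, 271, 351 and 428 CPM in *Smg6*-iKO. Libraries with low *Dlx* values, such as embryos SMH_129 and SMH_131 of Ctr + 4-OHT and embryo SMH_128 of *Smg6*-iKO, were low in this sum too. Genes annotated as snoRNA or scaRNA summed to 1180, 1139 and 1292 CPM in Ctr, 1115, 1184, 988 and 891 CPM in Ctr + 4-OHT, and 1134, 1005, 1116 and 1132 CPM in *Smg6*-iKO. Their sum was lowest in embryo SMH_132 of Ctr, SMH_131 of Ctr + 4-OHT and SMH_128 of *Smg6*-iKO. All 3505 genes of small RNAs together, mostly by those annotated as misc_RNA, summed to 28486, 24906 and 26529 CPM in Ctr, 25004, 23747, 22410 and 18582 CPM in Ctr + 4-OHT, and 21842, 23384, 23241 and 21919 CPM in *Smg6*-iKO. In Ctr and *Smg6*-iKO this sum was highest in embryo SMH_128, where the mean deviation of the 8 genes other than *Slc6a11* was lowest (5 of 8 genes were at their lowest there in Ctr and 8 of 8 in *Smg6*-iKO). In Ctr + 4-OHT it was lowest in embryos SMH_129 and SMH_131, as was the mean deviation of those 8. *Slc6a11* was at its highest of the group in embryo SMH_128 of Ctr (277 CPM) and of *Smg6*-iKO (208 CPM) and in embryo SMH_129 of Ctr + 4-OHT (289 CPM). Neuron markers summed to 2418, 2135 and 2375 CPM in Ctr, 3217, 2418, 1964 and 2970 CPM in Ctr + 4-OHT, and 2924, 2596, 2504 and 2752 CPM in *Smg6*-iKO. In *Smg6*-iKO they were highest in embryos SMH_127 and SMH_133, as was the mean deviation of the 8 genes, while *Slc6a11* was lowest there (156 and 179 CPM). In Ctr + 4-OHT they were high in embryo SMH_131, where that mean deviation was low. The part of these sums in the members' values was not tested.

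Of the 45 entries, 29 were coding genes. The coding gene most like *Dlx1* was *Unc80* (r = 0.96), that most like *Dlx2* was *Dnali1* (r = 0.93, at a mean of only 0.342 CPM), that most like *Dlx5* was *Nrxn3* (r = 0.97) and that most like *Dlx6* was *Agap1* (r = 0.94). For *Dlx6os1* it was *Sp9* (r = 0.96), for *Gad1* *Ecel1* (r = 0.96), for *Gad2* *Rims2* (r = 0.97) and for *Slc32a1* *Sik1* (r = 0.96). The genes most like *Slc6a11* were different ones, led by *Necap2*, *Fdxr*, *Flcn*, *Mcam* and *Ptk7* (r between 0.98 and 0.99). All these genes were picked for the highest r among the 18123 genes kept, over 11 libraries. A high r thus follows in part from the choice, and a shared regulation was not tested.

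Other genes of GABA metabolism and transport were taken from a list of 21, of which 20 were tested. Against Ctr, 0 rose and 5 fell, of which 4 are given here, where 9.25% of all genes tested were called, and with the embryo as a block 1 rose and 8 fell, where 21.4% were. In Ctr + 4-OHT against Ctr, edgeR called 0 of the 20, DESeq2 1 and limma-voom 0, and 7 had an unadjusted p under 0.05, where 8.28% of all genes did. *Glul*, which encodes glutamine synthetase, fell from 374 ± 14.6 (SD, n = 3) to 260 ± 7.39 CPM (SD, n = 4), a log2 fold change of -0.53 (SE 0.053, adjusted p = 0.000603, edgeR's quasi-likelihood test). *Glud1*, glutamate dehydrogenase, fell by 0.49 on the log2 scale (adjusted p = 0.00365) and *Slc38a3*, a glutamine transporter of glia, by 0.52 (adjusted p = 0.0103). *Abat*, the transaminase that breaks down GABA, had 95.2, 89.6 and 78.2 CPM in Ctr and 64.6, 75.0, 66.2 and 66.1 CPM in *Smg6*-iKO, with no overlap and a log2 fold change of -0.37 (SE 0.078, adjusted p = 0.0190).

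Against Ctr + 4-OHT, 1 of these 20 genes passed in edgeR, where 1.17% of all genes tested did. An unadjusted p under 0.05 was found for 3 of them, against 16.7% of all genes. *Pdxk* rose (log2 fold change 0.40, SE 0.055, adjusted p = 0.00907, edgeR), from 31.8 ± 1.14 to 41.5 ± 1.14 CPM (SD, n = 4 each), and encodes the kinase that makes pyridoxal phosphate, the cofactor of the GAD enzymes. In Ctr *Pdxk* stood at 35.6, 41.5 and 41.3 CPM, all above the Ctr + 4-OHT libraries, which lay between 31.1 and 33.5 CPM. *Abat* was at 67.4, 78.0, 80.2 and 54.2 CPM in Ctr + 4-OHT, with a log2 fold change of -0.032 for *Smg6*-iKO against it (adjusted p = 0.917). *Glul* was at 302, 280, 305 and 250 CPM there. The median of the 20 genes was -0.020 against Ctr + 4-OHT and -0.061 against Ctr, and in Ctr + 4-OHT against Ctr it was -0.053.

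**Figure D4:**
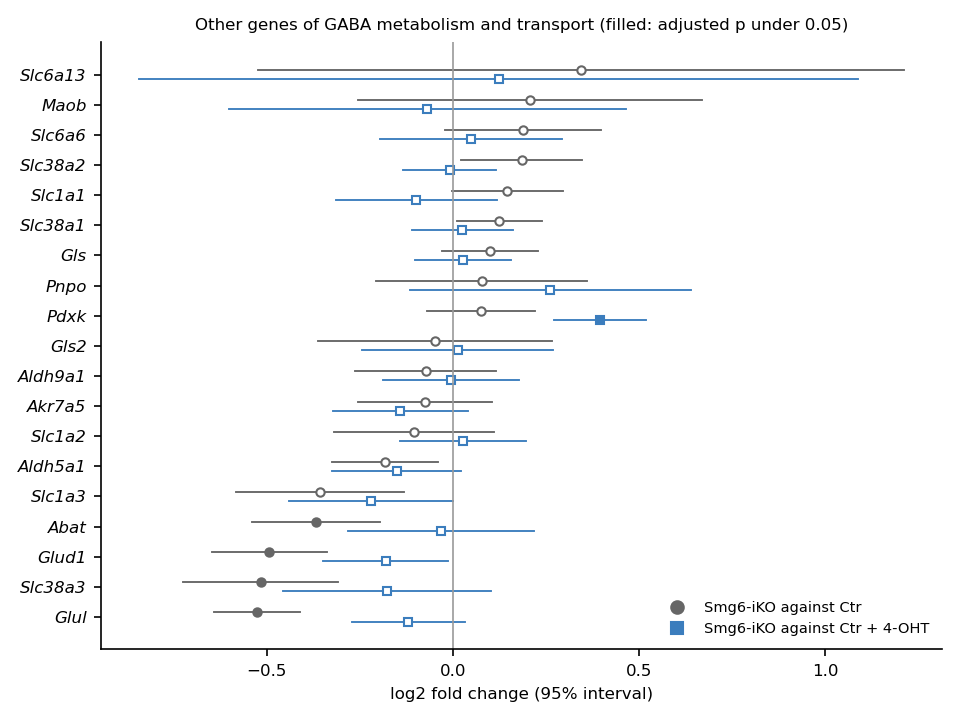
Log2 fold changes with 95% intervals (horizontal axis) of other GABA metabolism and transport genes, for *Smg6*-iKO against Ctr (grey circles) and against Ctr + 4-OHT (blue squares), filled where the adjusted p was under 0.05. Of the genes plotted, the 4 filled against Ctr are negative, from *Glul* (-0.53) to *Abat* (-0.37), and against Ctr + 4-OHT only *Pdxk* (0.40) is filled.

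Further *Dlx* transcripts were scarce, and those given here were chosen after their values were seen. *Dlx1as*, the antisense RNA at *Dlx1*, had 3.33, 2.65 and 3.10 CPM in Ctr, 3.72, 2.64, 2.78 and 3.43 CPM in Ctr + 4-OHT, and 3.32, 3.15, 3.49 and 3.86 CPM in *Smg6*-iKO, with overlapping groups. *Dlx6os2*, a transcript of 1 exon within the same intron of *Dlx6os1* and on the same strand, reached at most 0.854 CPM. *Dlx3* had 0.555, 0.735 and 0.689 CPM in Ctr, 0.707, 1.80, 1.00 and 0.848 CPM in Ctr + 4-OHT, and 0.729, 0.770, 0.611 and 0.854 CPM in *Smg6*-iKO, with overlapping groups. Of the 5 other *Dlx* genes, 3 were tested (*Dlx1as*, *Dlx6os2* and *Dlx3*), and 0 passed in edgeR, DESeq2 or limma-voom in any comparison, with 0 at an unadjusted p under 0.05 in edgeR.

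Regulators and partners of the *Dlx* genes moved in both directions. Of 18 genes, 2 rose and 4 fell against Ctr in edgeR, where 9.25% of all genes tested were called. There 9 had an unadjusted p under 0.05, against 26.9% of all genes, and DESeq2 called 8 (2407 genes in all) and limma-voom 6 (1612 in all). With the embryo as a block 3 rose and 5 fell, where 21.4% of all genes were called. Against Ctr + 4-OHT 0 passed in edgeR, where 3 had an unadjusted p under 0.05, against 16.7% of all genes. DESeq2 called 2 there (880 genes in all) and limma-voom 0. *Gsx2*, which specifies the lateral ganglionic eminence, had a log2 fold change of -0.43 (adjusted p = 0.107, edgeR) against Ctr. *Foxm1*, a cell cycle factor, fell from 74.9 ± 0.457 (SD, n = 3) to 54.2 ± 2.09 CPM (SD, n = 4), by 0.47 on the log2 scale (SE 0.055, adjusted p = 0.00158). Against Ctr + 4-OHT its log2 fold change was -0.38 (adjusted p = 0.0954).

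*Meis2* (log2 fold change -0.28, adjusted p = 0.0103, edgeR) and *Sp8* (-0.53, adjusted p = 0.0208), genes of ventral progenitors and their progeny, also fell against Ctr. *Nrp2*, a guidance receptor of migrating interneurons, rose by 0.50 (adjusted p = 0.0175) and *Isl1*, a factor of striatal neurons that is named here after its value was seen, by 0.51 (adjusted p = 0.0417).

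Markers of cell types gave these values beside the members, and the counts with the embryo as a block are to be read against the 21.4% of all genes called in that fit. Without the block, 26.9% of all genes had an unadjusted p under 0.05 against Ctr, where DESeq2 called 2407 genes in all and limma-voom 1612. Against Ctr + 4-OHT that share was 16.7%, with 880 genes called by DESeq2 and 195 by limma-voom, and in Ctr + 4-OHT against Ctr it was 8.28%. Of 10 neural progenitor markers, 7 fell against Ctr and 0 rose, where 9.25% of all genes tested were called, led by *Hes5* (log2 fold change -1.28, adjusted p = 0.00186, edgeR), and 0 passed against Ctr + 4-OHT, with 3 at an unadjusted p under 0.05, 1 called by DESeq2 and 0 by limma-voom. The median log2 fold change of these 10 was -0.31 against Ctr and -0.14 against Ctr + 4-OHT. In Ctr + 4-OHT against Ctr it was -0.25, with 3 of 10 at an unadjusted p under 0.05 and 0 called by edgeR, DESeq2 or limma-voom. Of 10 neuron markers, 1 rose against Ctr in edgeR without the block (*Gap43*, 0.40, adjusted p = 0.0428) and 6 with it, and without the block 6 had an unadjusted p under 0.05, DESeq2 called 6 and limma-voom 1. Their median was 0.28 against Ctr, 0.064 against Ctr + 4-OHT and 0.22 in Ctr + 4-OHT against Ctr, and 0 passed against Ctr + 4-OHT, with 0 at an unadjusted p under 0.05 and 0 by DESeq2 or limma-voom. Their sum was 2135 to 2418 CPM in Ctr, 1964 to 3217 CPM in Ctr + 4-OHT and 2504 to 2924 CPM in *Smg6*-iKO. The astrocyte marker *Gfap* rose against Ctr (1.33, adjusted p = 0.0288), the 1 of 9 astrocyte markers that edgeR called, where 3 had an unadjusted p under 0.05, DESeq2 called 3 and limma-voom 1. The median of the 9 was -0.079, and with the block 2 rose and 4 fell. Against Ctr + 4-OHT, 8 were tested with a median of 0.057, and edgeR, DESeq2 and limma-voom called 0, with 2 at an unadjusted p under 0.05. *Gfap* was at 21.4, 11.5, 5.14 and 78.2 CPM in Ctr + 4-OHT and 25.7 to 63.6 CPM in *Smg6*-iKO, so that 1 control library lay above every *Smg6*-iKO library (log2 fold change 0.62, adjusted p = 0.687, edgeR). The summed level of the 9 was 2436 to 2972 CPM in Ctr and 2054 to 2640 CPM in *Smg6*-iKO. Oligodendrocyte lineage markers passed in 0 of 8 tested against Ctr, with 1 at an unadjusted p under 0.05 and 0 by DESeq2 or limma-voom, and 5 rose with the block, and 0 were called against Ctr + 4-OHT by the 3 tools, with 0 at an unadjusted p under 0.05. Of the dorsal cortical markers, 1 of 10 fell against Ctr (*Lhx2*, -0.27, adjusted p = 0.0291), DESeq2 called 2 and limma-voom 1, and 2 fell with the block. Against Ctr + 4-OHT, 9 were tested and 0 called by the 3 tools, with 1 at an unadjusted p under 0.05. The 5 endothelial markers tested had a median log2 fold change of 0.38 against Ctr + 4-OHT and 0.60 against Ctr, and the 7 mesenchymal and pericyte markers 0.44 and 0.59, beside 0.37 and 0.31 for the 9 members. In both lists and both comparisons edgeR, DESeq2 and limma-voom called 0, with 1 gene at an unadjusted p under 0.05. With the embryo as a block the medians against Ctr were 0.31 (endothelial, 0 of 5 called) and 0.095 (mesenchymal and pericyte, 1 higher and 1 lower of 7). Endothelial markers summed to 6.08 to 7.25 CPM in Ctr, 5.37 to 6.66 CPM in Ctr + 4-OHT and 5.71 to 8.66 CPM in *Smg6*-iKO. Mesenchymal and pericyte markers summed to 384 to 549.7 CPM in Ctr, 316 to 911 CPM in Ctr + 4-OHT and 283 to 1540 CPM in *Smg6*-iKO. The part of these cell types in the members' values was not tested.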

How the data were processed

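Total RNA of 11 NPC libraries from 8 embryos was depleted of ribosomal RNA and sequenced by strand. Per the labels and the study's methods, the authors used bcl2fastq 1.8.4, aligned reads with STAR 2.5.4b to GRCm38, and counted them per gene of Ensembl release 92 with featureCounts 1.5.0, without reads that map to several places or overlap several genes. The deposited counts are raw read counts per gene, not normalized, summing to between 26418249 and 33756875 per library, and depth limits mainly the low genes *Dlx2*, *Dlx5* and *Dlx6*. Symbols were found for 53620 of 53801 gene identifiers. There were 0 columns of other samples.

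Each comparison was fitted on its own groups with edgeR 4.0.16 (R 4.3.3; filterByExpr, TMM, quasi-likelihood test, two-sided, Benjamini-Hochberg adjustment over all genes tested, threshold 0.05). Standard errors were taken from the fold change and its F value, and intervals cover 95%. CPM were computed after TMM over 11 libraries with 18123 genes kept, and log2 CPM with a prior count of 2. Alternatives were DESeq2 1.42.0, limma-voom (limma 3.58.1), no filter, a fit of all libraries, leaving out each library, and the embryo as a block. The fits were tested on simulated data. Python 3.11.15, pandas 2.3.3, numpy 2.4.6 and matplotlib 3.10.9 made summaries and plots.

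Embryo numbers in the labels pair the Ctr and *Smg6*-iKO libraries, since the same number is the same embryo. Deviations from the group means correlated within all 3 pairs (r = 0.328, 0.399 and 0.425 for embryos SMH_128, SMH_132 and SMH_133). Between a Ctr and a *Smg6*-iKO library of different embryos, r lay between -0.265 and 0.0948. Libraries of different embryos are separate animals.

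All 9 members were named. Of each other list, at most the 5 called genes with the smallest p were named, plus a fixed few such as *Gsx2*, *Abat* and *Foxm1* in any case, with exceptions marked in the text. Some genes of these lists count in the totals and are not reported here. The genes most like each member were the 5 with the highest Pearson's r, or 10 for the mean of the *Dlx* genes. Members and lists were chosen with earlier results of these data known. Promoter windows came from RefSeq (GRCm38.p6), and no proteins were used here.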

Additional observations from a re-analysis of the deposited data

Results flagged for a closer look

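In the *Smg6*-iKO group, the library of embryo SMH_128 lay far below the other 3 libraries for *Dlx2* (3.23 CPM against 5.79 to 6.08 CPM) and for *Gad2* (19.7 CPM against 28.7 to 30.3 CPM). The gap to the nearest library, divided by the whole range of the group, was 0.898 for *Dlx2* and 0.848 for *Gad2*, above the critical value of 0.829 for 4 samples. Of the 9 genes in both groups of 4, these were 2 of 18 sets tested, and chance flags about 1 in 20. The 2 flags come from the same library and are not independent of each other. The Ctr library of the same embryo had the lowest value of its group for both genes (3.33 and 18.1 CPM).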

How the results depend on the processing

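Against Ctr + 4-OHT, the count of members called (0 of 9 in edgeR) was 1 with no filter on low counts, 1 with DESeq2 on the groups compared and 2 with DESeq2 on all libraries, and lay between 0 and 1 when 1 library was left out. Against Ctr, the count of 2 became 6 with no filter and 0 with all 11 libraries in one edgeR fit, and lay between 0 and 5 when 1 library was left out. Over all genes, the calls against Ctr + 4-OHT went from 206 to 418 with no filter, 484 with all libraries, and 880 and 1131 with DESeq2, and between 66 and 174 when 1 library was left out. Those against Ctr went from 1663 to 2714 with no filter, 796 with all libraries, 3854 with the block, and between 570 and 2524 when 1 library was left out. Those of Ctr + 4-OHT against Ctr went from 39 to 198 with no filter, 60 with all libraries and 168 and 238 with DESeq2, and between 5 and 54 when 1 library was left out. The cause was not tested.

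With the embryo as a replicate block, which the labels support as a pairing, 5 of 9 members were called against Ctr. In fits of the pairs that left out 1 embryo, an alternative chosen after seeing the data, between 2 and 7 were called.

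No member changed direction in the comparisons of *Smg6*-iKO, and its median log2 fold change lay between 0.27 and 0.48 against Ctr + 4-OHT and between 0.17 and 0.44 against Ctr under the alternatives run. In Ctr + 4-OHT against Ctr, where 0 members were called under any alternative, leaving out 1 library turned the sign of small values. The log2 fold change lay between -0.11 and 0.089 for *Slc6a11*, between -0.25 and 0.079 for *Dlx2*, between -0.25 and 0.027 for *Dlx5*, between -0.16 and 0.090 for *Dlx6os1*, between -0.16 and 0.060 for *Gad2* and between -0.16 and 0.10 for *Slc32a1*. Between 69 and 204 counts per library limit *Dlx2*, *Dlx5* and *Dlx6* more than the other members.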
